A study of Mus musculus with 4 samples.

Results

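The vehicle control of a study of fatty acids in mouse macrophages was described gene by gene. It is 1 of the 4 arrays of the series, and its members are the 19938 genes that have at least 1 probe assigned to them alone, ranked by their value in that array. The cells came from the peritoneal cavity of wild-type C57BL/6 mice aged 8 to 12 weeks, 3 days after an injection of 1 mL of 4% thioglycolate, an irritant that draws leukocytes into the cavity. Cells that stayed attached after a wash at 3 h of plating were then kept for 6 h without fatty acid. The label of this sample names bovine serum albumin alone, while the treatment protocol names a mixture of ethanol and KOH as vehicle. The other 3 arrays, of cells given 500 µM of palmitic, oleic or linoleic acid, are not used here.

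The array was made from RNA pooled from 3 samples, so it is 1 measurement with no spread between animals, no interval and no test. Cells were selected by adherence and were not sorted, and the sex of the mice is not given in the labels.

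Macrophages are phagocytes that take up particles, dying cells and lipoproteins through surface receptors and digest them in lysosomes. The peritoneal cavity holds a resident population, large macrophages that depend on the transcription factor GATA6, and a smaller population of monocyte origin. Irritants such as thioglycolate bring in many further monocytes, which become macrophages rich in lysosomes and lipid. Bacterial products and adherence can switch on a fast program driven by NF-kB, with cytokines and chemokines, and a second program of interferon-stimulated genes.

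Values are log2 brightness after the authors' RMA normalisation. The median gene lay at 7.29 and the genes ran between 2.69 and 14.07. Brightness depends on the probes as well as on the RNA, so the order of genes is an order of brightness and not of transcript number. To mark what is dim, the 1240 receptor genes for odorants, pheromones, taste and trace amines, which serve chiefly sensory neurons and taste cells, were taken as a reference with a median of 4.81. The dim bound was set at their 99th percentile, log2 7.53. Of all genes, 9118 (45.7%) lay above this bound, which is not a detection call. The top 10% of genes began at log2 10.72 and the top 1% at 12.89. Counts of list and family members are to be read against the shares of all genes, 45.7% above the bound and 10.0% in the top 10%. Among the 999 genes with several probes, the SD between probes of the same gene had a median of 0.51, and 192 of these genes (19.22%) had probes on both sides of the bound.

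**Figure D1:**
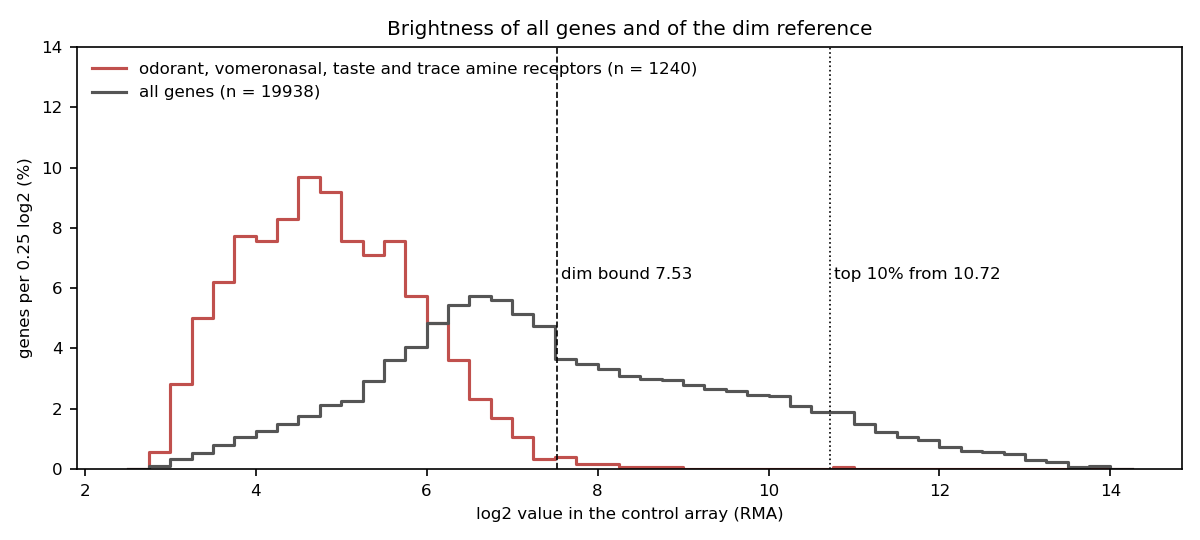
Share of genes (%) by log2 brightness in the control array, for the reference receptor genes (red) and for all genes (grey). The reference has its median at 4.81 and all genes at 7.29, with the dim bound at 7.53 and the top 10% of genes from 10.72.

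The cells carried the markers of macrophages. Lyz2, which codes for lysozyme M, lay at 13.92 (rank 11), the interleukin gene Il1b at 13.78 (rank 20) and Acod1, whose enzyme makes itaconate in activated macrophages, at 13.98 (rank 3). Cd36, the gene of a scavenger and fatty acid receptor, lay at 13.24 and the integrin gene Itgax, which codes for CD11c, at 12.92. All 22 genes of the macrophage identity list lay above the dim bound, against 45.7% of all genes, and 20 were in the top 10%, against 10.0% of all genes. Their median was 13.11. The members next to these included Cd68 (13.65), Lgals3 (13.57), Tyrobp (13.28), the lineage factor gene Spi1 (12.99) and Adgre1 (12.98), which codes for the F4/80 antigen. Csf1r, the receptor for the macrophage growth factor CSF1, lay at 12.06 and Itgam, which codes for CD11b, at 12.01. The lowest were Fcgr1 (10.69) and Aif1 (7.86). Aif1 codes for IBA1, a common macrophage marker, and was close to the bound. The identity list holds the genes named first here and was chosen with earlier results of these data known. Its counts therefore describe the list and do not test what the cells are.

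The 30 brightest genes mixed housekeeping, iron storage, lysosome and inflammation. Actb was first at 14.07, followed by the ferritin heavy chain gene Fth1 at 14.03. The light chain gene Ftl1 lay at 13.98, beside Txn1, which codes for thioredoxin, at 13.98. Lysosomal genes among the 30 were Psap (13.95), Gpnmb (13.93), Ctsd (13.93), Ctsb (13.87), Cd68 and the cathepsin inhibitor gene Cst3 (13.65). Apoe, the gene of the main apolipoprotein secreted by macrophages, lay at 13.85. Inflammatory genes took 10 further places, namely Acod1, Ccl3 (13.92), Il1a (13.84), Ccl5 (13.83), Cxcl10 (13.83), Ptgs2 (13.81), Il1b, Tnf (13.76), Rsad2 (13.74) and Cxcl2 (13.73). The phagocyte oxidase genes Cybb (13.74) and Cyba (13.64) were also among them. The 30 genes spanned 0.48 in log2, close to the median SD between probes of the same gene. This SD was 0.51 over all genes with several probes and 0.45 over the 617 of them with a mean above the bound. The order of the 30 genes within this range is therefore not resolved.

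The receptor lists also hold cytosolic sensors and partners of receptors such as genes of antigen processing. Of their 251 measured genes, 172 (68.5%) lay above the bound and 100 (39.8%) in the top 10%. The shares of all genes were 45.7% and 10.0%. Cytokine receptors were bright as a list, with 23 of 27 above the bound and a median of 11.25. The subunits of the receptor for GM-CSF, Csf2rb (12.79) and Csf2ra (12.57), lay beside the TNF receptor gene Tnfrsf1b (13.43), the interferon receptor genes Ifngr2 (12.91), Ifnar2 (12.82) and Ifnar1 (12.06), and Il10rb (12.89). Il7r, best known from lymphocytes, lay at 12.54. At or below the bound were Kit (7.30), Flt3 (6.07), Il1r2 (6.01) and Il5ra (4.85), the receptors of progenitors, dendritic cell precursors and eosinophils among them.

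Scavenger receptors split into bright and dim members. Of 17 genes, 12 (70.6%) lay above the bound, against 45.7% of all genes. Msr1, the class A scavenger receptor, lay at 12.98, Lrp1 at 12.43 and Olr1, the receptor for oxidised LDL, at 12.35. The mannose receptor gene Mrc1 lay at 10.51. Marco (7.48) was just under the bound, and Scara5 (6.77), Stab2 (6.84) and the haemoglobin receptor gene Cd163 (5.97) were dimmer. Genes for the clearance of dying cells showed the same split. The bridging protein gene Mfge8 lay at 13.45, the integrin chain gene Itgav at 12.69, and the receptor kinase genes Axl and Mertk at 11.99 and 11.78. Tyro3, the third kinase of that family, lay at 6.89, and the phosphatidylserine receptor gene Timd4 at 7.01.

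Sensors of microbes were present across several families. Of 17 Toll-like receptor and partner genes, 16 lay above the bound, with a median of 11.87. Cd180 (13.20), Ly96 (12.86), Cd14 (12.83), Tlr8 (12.68) and Tlr2 (12.63) led the list, and Tlr7 lay at 12.37. Tlr4, the receptor for lipopolysaccharide, lay at 9.10 and Tlr9 at 8.52, and Tlr12 (6.45) was the sole member below the bound. All 12 cytosolic sensor genes lay above the bound, led by Ifih1 (13.10) and Ddx58 (12.55), which code for the RNA sensors MDA5 and RIG-I. Among Fc receptors for IgG, the inhibitory Fcgr2b (13.09) was above Fcgr3 (11.79), Fcgr4 (10.87) and Fcgr1 (10.69) in brightness, and their common signalling chain Fcer1g lay at 13.40. The IgE receptor genes Fcer1a (4.86) and Fcer2a (5.71) were dim.

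C-type lectins were among the lists with members at both ends. Of 25 genes, 11 (44.0%) lay above the bound, against 45.7% of all genes, and 7 were in the top 10%. Clec4e, which codes for the mycobacterial glycolipid receptor Mincle, lay at 13.49, Clec4d at 12.70, Clec12a at 12.46 and the beta-glucan receptor gene Clec7a at 12.06. Clec10a (6.54), Mgl2 (6.80), Cd209a (6.92) and Clec9a (4.97) were below the bound. Of 31 paired immunoglobulin-like receptors 24 (77.4%) were above it, with Lilrb4a (13.24), Trem2 (12.98) and Sirpa (12.74) the highest after Tyrobp. Trem1 (6.88), an amplifier of inflammation on neutrophils and monocytes, was below it, and so were Siglech (6.57) and Siglecg (7.02).

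Chemoattractant receptors ranged from the top 1% to far below the bound. Of 26 genes 10 (38.5%) lay above the bound, against 45.7% of all genes, with a median of 6.83, against 7.29 over all genes. The complement anaphylatoxin receptor genes C3ar1 (13.16) and C5ar1 (11.65), the atypical receptor gene Ccrl2 (13.35) and Cmklr1 (10.88) made up the 4 in the top 10%. Ccr1 lay at 8.82 and Cxcr4 at 7.79. Ccr2, which guides monocytes out of the bone marrow, lay at 4.56, above 5.95% of all genes, and Cxcr2, the neutrophil receptor, at 4.16. Cx3cr1 (7.58) and Ccr7 (7.58) were at the bound within the spread between probes.

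Genes of antigen presentation were bright, and those of costimulation ranged widely. B2m, the light chain of class I molecules, lay at 13.51, the class II invariant chain gene Cd74 at 11.83, and the class II genes H2-Ab1, H2-Aa and H2-Eb1 at 11.42, 11.08 and 10.31. Ciita, the master regulator of class II genes, was at 7.27, below the bound. Cd40 (13.47) and Cd274 (13.09), which codes for the checkpoint ligand PD-L1, were in the top 1%. The B7 genes Cd86 (9.94) and Cd80 (9.74) were in the middle, and the probes of Cd80 lay at 8.43 and 11.05. Pdcd1lg2, which codes for PD-L2, lay at 6.04. Among 36 receptors for lipids and nucleotides, 20 (55.6%) lay above the bound, against 45.7% of all genes. They were led by Ptafr (12.84), Gpr84 (12.68), a receptor for medium-chain fatty acids, and the ATP-gated channel gene P2rx4 (12.41). The free fatty acid receptor genes Ffar1 to Ffar4 lay between 5.96 and 6.50, all below the bound.

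Several integrin chains of leukocytes were bright. Itgb2 (12.98), the common chain of leukocyte integrins, stood beside its partners Itgax, Itgam and Itgal (11.71), and the fibronectin receptor chains Itga5 (12.85) and Itga4 (12.15) were also in the top 10%. Of 18 alpha chains 9 (50.0%) lay above the bound, against 45.7% of all genes. Itgad (7.24), Itga2b (7.32) of platelets, Itgae (5.95) of epithelial lymphocytes and dendritic cells, and the epithelial Itgb4 (7.01) and Itgb6 (5.51) did not.

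The lysosome was the functional class with the highest share of bright genes after the macrophage identity list. Of 102 measured genes, 92 (90.2%) lay above the bound and 64 (62.7%) in the top 10%, with a median of 11.38. The shares of all genes were 45.7% and 10.0%. Among cathepsins, the lysosomal proteases, Ctsd (13.93), Ctsb (13.87), Ctsz (13.57), Ctsa (13.45), Ctss (13.44) and Ctsl (13.42) were in the top 1%. Ctsk, best known from osteoclasts, lay at 12.01. Ctsg (6.09), a protease of neutrophil granules, and Ctsw (6.29) of cytotoxic lymphocytes were below the bound. In the whole cathepsin family of 21 genes, Ctsj (4.31) and Cts8 (4.13), of a cluster expressed in rodent placenta, were the dimmest.

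All 31 lysosomal hydrolase genes were above the bound. After Psap they were led by Hexa (13.16), Acp5 (13.16), which codes for tartrate-resistant acid phosphatase, and Lipa (13.15), which codes for the acid lipase that frees cholesterol from lipoproteins. The lowest were Sgsh (8.03) and Hyal2 (7.76). The lysosomal membrane list, which also holds genes of soluble proteins such as Npc2, included Lamp1 (13.40), Laptm5 (13.36) and Lamp2 (13.08). The cholesterol export genes Npc2 and Npc1 lay at 12.68 and 12.09. Lamp3 (4.49), a marker of mature dendritic cells, was the sole member of 24 below the bound.

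Of 24 genes of the proton pump that acidifies lysosomes, 19 lay above the bound and 16 in the top 10%. Atp6v0d2, a subunit of macrophages and osteoclasts, lay at 13.09, Atp6v1b2 at 13.01 and Tcirg1 at 13.01. Atp6v1g2 (8.83) and Atp6v0e2 (7.59) were the lowest above the bound. The kidney and inner ear subunits Atp6v1b1 (6.70) and Atp6v0a4 (6.68), and Atp6v1c2 (6.40), Atp6v1g3 (6.44) and Atp6v1e2 (7.01), were the 5 below. Of the transcription factor family that controls lysosome genes, Tfec lay at 11.93, Tfe3 at 10.90, Mitf at 9.01 and Tfeb at 8.66. The 2 probes of Mitf lay at 6.42 and 11.60, so that its place is uncertain.

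**Figure D2:**
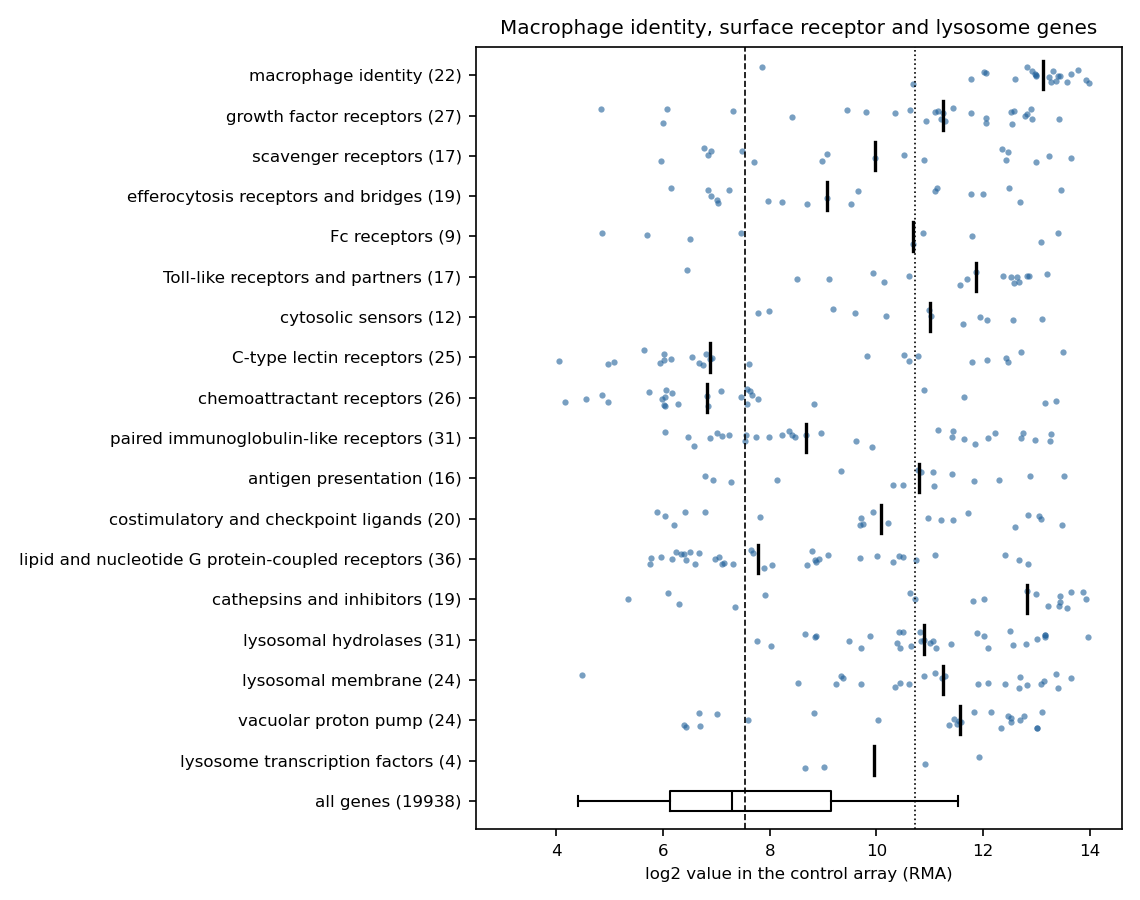
Each point is a measured gene of a list, placed by its log2 value in the control array; black bars are list medians, numbers in brackets are genes, and the box gives all genes (quartiles, whiskers at the 5th and 95th percentile). Lysosome lists lie mostly right of the top 10% line (dotted, 10.72), while C-type lectin and chemoattractant receptor lists have medians of 6.88 and 6.83, left of the dim bound (dashed, 7.53).

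Genes of lipid handling ranged widely between lists. Of 205 genes, 123 (60.0%) lay above the bound and 44 (21.5%) in the top 10%, against 45.7% and 10.0% of all genes. For fatty acid uptake, Lpl, the lipoprotein lipase gene, lay at 13.49, and the fatty acid binding protein genes Fabp5, Fabp7, Fabp3 and Fabp4 at 13.02, 12.64, 11.57 and 10.86. Fabp7 is best known as a binding protein of brain glia. The intestinal and liver members Fabp1 (4.75), Fabp2 (5.17) and Fabp6 (5.20) were dim. Of the acyl-CoA synthetase genes that activate fatty acids, Acsl4 lay at 11.57 and Acsl5 at 11.42, and Acsl6 at 6.24. The transport protein genes Slc27a1 (10.56) and Slc27a4 (8.97) were above the bound, and the other 4 members of that family lay between 5.35 and 6.29.

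Lipid droplets had a main coat gene. Plin2 lay at 12.21 and Plin3 at 9.87, while Plin1, Plin4 and Plin5 lay at 7.26, 7.27 and 7.15, all below the bound. Hilpda, an inhibitor of droplet lipolysis, was at 9.32. The triglyceride lipase gene Pnpla2 (10.11) and its coactivator gene Abhd5 (10.03) were above Dgat1 (9.13) and Dgat2 (7.63) in brightness. The adipocyte droplet genes Cidea (5.41) and Cidec (7.03) were below the bound. Nceh1, which codes for a cholesterol ester hydrolase, lay at 11.61.

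All 21 measured genes of cholesterol synthesis and its control lay above the bound, 10 of them in the top 10%, with Insig1 (12.23), Msmo1 (12.02) and Hmgcs1 (11.57) at the top and Pmvk (7.79) at the bottom. For efflux, Abca1 lay at 12.26, Abcg1 at 11.53 and the phospholipid transfer protein gene Pltp at 12.15. Apoe was the highest of the 12 apolipoprotein genes with probes of their own. The next was Apoa5 at 7.54, and the remaining 10 lay between 5.54 and 7.36. Apoc2 is measured together with a predicted gene, at 9.86. In fatty acid synthesis 12 of 21 genes (57.1%) were above the bound, against 45.7% of all genes. Elovl1 (12.57), Scd2 (11.15) and Acly (10.74) were the highest. In fatty acid oxidation 21 of 26 were above the bound with a median of 8.94, but 2 were in the top 10%, Hadha (10.95) and Cpt1a (10.73).

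Of 39 nuclear receptor genes 16 (41.0%) lay above the bound, against 45.7% of all genes, with a median of 7.02, against 7.29 over all genes. The glucocorticoid receptor gene Nr3c1 (10.76) was the highest, followed by Ppard (10.41), the oxysterol receptor gene Nr1h3 (10.04), Pparg (9.70) and Rxra (9.32). Ppara lay at 6.24. Receptors of liver and steroid-forming tissue, such as Nr1h4 (5.94), Nr1i3 (6.12) and Nr0b1 (5.69), were below the bound. In eicosanoid synthesis, Ptgs2 (13.81), Pla2g7 (12.70), Alox5ap (12.13) and Ptges (11.58) were bright, whereas Alox5 (6.75), Ltc4s (7.11) and Alox15 (7.17) were below the bound. Ptgs2 and Ptges act in prostaglandin E2 synthesis, and Alox5 codes for the first enzyme of leukotriene synthesis. Alox5ap and Lta4h (8.99), also of leukotriene synthesis, were above the bound, and the prostaglandin D synthase gene Ptgds (6.80) was below it. Of the 22 eicosanoid genes 11 (50.0%) lay above the bound, against 45.7% of all genes.

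Inflammatory genes were bright in these cells, which were given no fatty acid. Of 245 genes in these lists, 167 (68.2%) lay above the bound and 108 (44.1%) in the top 10%. The shares of all genes were 45.7% and 10.0%. Among cytokines 18 of 23 were above the bound. Il1a, Il1b and Tnf were followed by Il6 (13.05), Il12a (12.70), the interleukin 1 antagonist gene Il1rn (12.64), Il12b (12.60), Tgfb1 (12.42) and Il15 (12.09). Csf2 lay at 8.97. Below the bound were Csf3 (7.47), Il33 (7.08), the anti-inflammatory Il10 (6.99), Il16 (6.55) and the interferon gene Ifnb1 (6.02). None of the 25 cytokine genes typical of lymphocytes and epithelia passed the bound. The highest of these was Il17b at 7.43, with Ifng at 6.81, Il4 at 6.38 and Il2 at 5.75.

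Chemokines divided into a bright and a dim part. Of 19 CC ligands 10 (52.6%) lay above the bound, against 45.7% of all genes, and 8 were in the top 10%. These 8 were Ccl3, Ccl5, Ccl9 (13.12), Ccl2 (12.97), Ccl4 (12.85), Ccl6 (11.93), Ccl7 (11.28) and Ccl22 (11.19), most of them attractants of monocytes and T cells. The eotaxin gene Ccl11 (6.87), the lymph node chemokine gene Ccl19 (7.05) and Ccl8 (6.10) were below the bound. Of 13 CXC ligands 10 (76.9%) lay above it, with Cxcl10, Cxcl2, Cxcl1 (12.50), Cxcl16 (12.47) and Cxcl3 (12.22) in the top 10%. Cxcl12 (6.60), Cxcl5 (6.12) and Cxcl15 (4.65), products of stroma and lung epithelium among them, were dim.

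**Figure D3:**
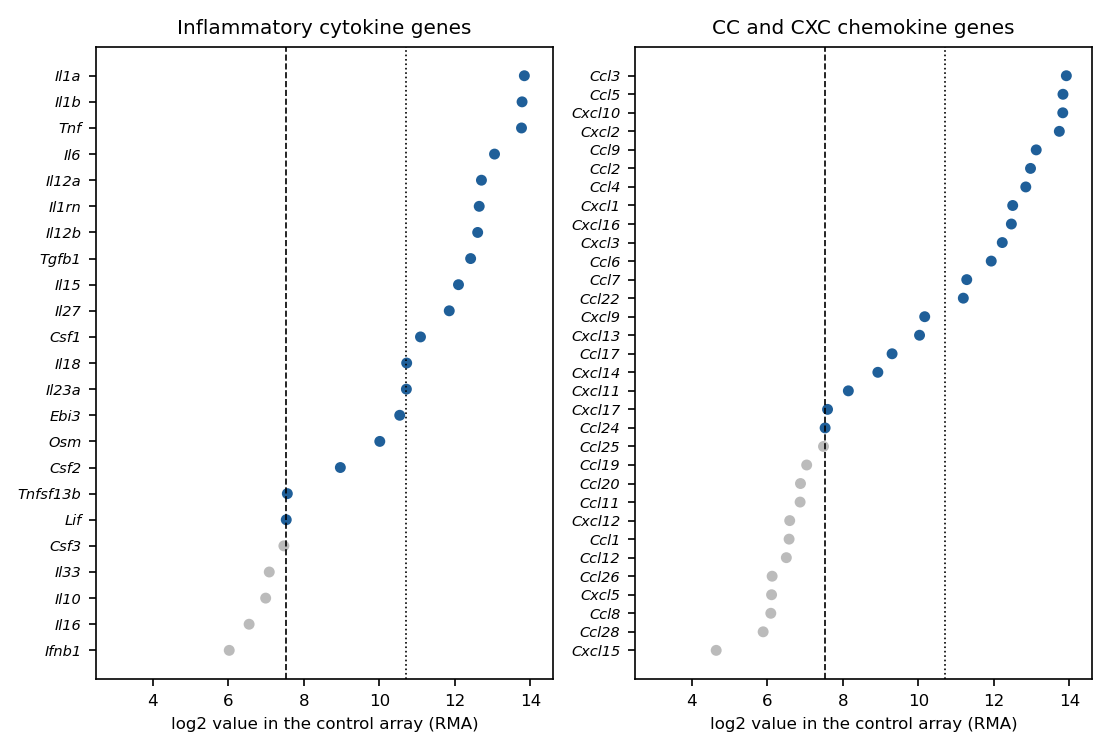
Log2 values in the control array of 23 inflammatory cytokine genes (left) and 32 chemokine ligand genes (right), with the dim bound (dashed, 7.53) and the start of the top 10% (dotted, 10.72); blue genes lie above the bound and grey ones do not. Il1a, Il1b and Tnf, and Ccl3, Ccl5, Cxcl10 and Cxcl2, are the highest of their panels, while Ifnb1 lies at 6.02 and Cxcl15 at 4.65.

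The regulators of this program were bright as well. All 26 measured NF-kB and feedback genes were above the bound, 19 of them in the top 10%, led by Tnfaip2 (13.31), Icam1 (13.04), the inhibitor gene Nfkbia (13.01), Nfkbib (12.94) and Rel (12.91). Tnfaip3, which codes for the feedback enzyme A20, lay at 12.80. Socs3 lay at 10.60 with probes at 9.13 and 12.06. Of 19 inflammasome genes 15 were above the bound, with Casp8 (12.33), Nlrp3 (11.94), Casp4 (11.80) and Casp1 (11.21) after Il1b. Nlrc4 (7.79) was near it, and Nlrp1a (6.09) and Nlrp1b (5.92) were below.

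All 27 measured interferon-stimulated genes lay above the bound and 23 in the top 10%, with a median of 12.56. After Cxcl10 and Rsad2 came Cmpk2 (13.44), Ifit1 (13.39), Oasl2 (13.23), Ifit2 (13.18) and Ifih1. The lowest were Iigp1 (9.14) and Cxcl11 (8.15). The interferon genes themselves were dim. Of 14 type I interferon genes, 2 lay above the bound, Ifna5 (8.44) and Ifnz (7.75), and Ifnb1 was not among them. All 7 Schlafen genes, a family induced by interferon, lay between 10.20 and 12.98.

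The promoters of 4 of these bright genes, chosen after their values were seen, are printed. Each holds letters that factors of either program are known to bind, and that of Cxcl10 holds those of both. Searched on both strands were a form of the kB motif, GGGA and TTCC with 2 bases of any kind between them, and a form of the interferon response motif, GAAA and GAAA with 2 bases of any kind between them, in the 250 bases before each transcription start (RefSeq, GRCm38.p6). Both motifs are in capitals, and overlapping matches were joined. Each is read 5′ to 3′ on the strand of its gene.
Cxcl10, chr5:92348890-92349139, minus strand: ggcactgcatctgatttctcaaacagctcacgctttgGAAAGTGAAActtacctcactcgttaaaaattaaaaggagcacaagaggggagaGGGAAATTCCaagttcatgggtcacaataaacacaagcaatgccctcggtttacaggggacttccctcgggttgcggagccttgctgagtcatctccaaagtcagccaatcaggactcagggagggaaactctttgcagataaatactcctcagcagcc
Rsad2, chr12:26456453-26456702, minus strand: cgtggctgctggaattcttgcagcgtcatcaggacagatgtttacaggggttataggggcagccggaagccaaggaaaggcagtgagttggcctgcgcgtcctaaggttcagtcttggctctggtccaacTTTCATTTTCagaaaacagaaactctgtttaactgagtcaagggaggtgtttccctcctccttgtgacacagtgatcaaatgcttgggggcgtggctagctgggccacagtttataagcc
Cxcl2, chr5:90903649-90903898, plus strand: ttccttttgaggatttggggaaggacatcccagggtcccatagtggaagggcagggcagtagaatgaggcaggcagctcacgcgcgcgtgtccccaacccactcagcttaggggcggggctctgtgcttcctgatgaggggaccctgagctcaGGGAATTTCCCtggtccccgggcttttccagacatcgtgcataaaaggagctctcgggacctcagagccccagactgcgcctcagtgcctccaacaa
Il6, chr5:30012864-30013113, plus strand: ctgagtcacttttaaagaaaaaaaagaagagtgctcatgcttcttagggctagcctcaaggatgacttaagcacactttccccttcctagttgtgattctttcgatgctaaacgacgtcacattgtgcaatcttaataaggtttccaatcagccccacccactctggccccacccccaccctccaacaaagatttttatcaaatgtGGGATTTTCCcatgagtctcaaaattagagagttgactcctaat

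The kB motif began 159 bases before the start of Cxcl10, 97 and 96 bases before that of Cxcl2 as overlapping matches on opposite strands, and 44 bases before that of Il6. The interferon response motif began 213 bases before the start of Cxcl10 and 120 bases before that of Rsad2, there on the opposite strand. Of the 19 interferon-stimulated genes with a promoter in the table, 10 (52.6%) held the interferon response motif, against 936 of 27025 genes (3.5%) in the whole table. The kB motif was in 6 of 26 cytokine and chemokine genes above the dim bound (23.1%), in 4 of 31 such genes at or below it (12.9%), and in 368 of all 27025 (1.4%). A further motif searched, TATAAA on the strand of the gene, ran the other way in these sets. It was in 7 of the 26 (26.9%), in 13 of the 31 (41.9%) and in 2415 of all 27025 (8.9%). A match describes letters in a window and does not show that a factor was bound.

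Effector genes of host defence followed the same lines. Beside Acod1 and Ptgs2, Sod2 lay at 13.43, the acute phase gene Saa3 at 12.76, Lcn2 at 11.67 and Nos2, the inducible nitric oxide synthase gene, at 10.84. The arginase gene Arg1, whose enzyme competes with it for arginine, lay at 7.73, just above the bound, and the other arginase gene, Arg2, at 9.87. Ido1 (6.27) was below the bound. Of 13 phagocyte oxidase genes, 7 lay above the bound and all 7 were in the top 10%. They were Cybb and Cyba of the membrane complex, the proton channel gene Hvcn1 (12.86), Rac2 (12.48), Rac1 (12.42), Ncf1 (11.61) and Ncf4 (10.96). The 6 genes of other oxidases, Nox1, Nox3, Nox4, Noxo1, Duox1 and Duox2, lay between 5.18 and 6.93.

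Markers of alternative activation, the state driven by interleukin 4, lay on both sides of the bound. Of 18 genes 9 (50.0%) were above it, against 45.7% of all genes, and the median was 7.32. Tgm2 (12.42), Ccl22, Il4ra (11.15) and Egr2 (10.98) were in the top 10%. Among markers in common use in mice, Mrc1 and Arg1 were above the bound, and Retnla (6.77), Chil3 (5.74), Chil4 (4.13), Mgl2 and Clec10a were below it.

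Complement genes were bright for a few parts of the cascade. Of 33 genes 13 (39.4%) were above the bound, against 45.7% of all genes. The C1q chains C1qb (13.30), C1qc (12.52) and C1qa (10.69), properdin (Cfp, 11.59) and factor B (Cfb, 11.52) were bright, and the terminal components C6 (5.57), C7 (5.22), C9 (5.12) and Hc (6.00), which codes for C5, were dim. Among matrix and protease genes 29 of 32 were above the bound, with Mmp12 (13.51), the macrophage elastase gene, Fn1 (13.14), the coagulation factor gene F10 (13.02) and Mmp14 (12.95). Of 22 matrix metalloproteinases 9 (40.9%) lay above it, against 45.7% of all genes. In iron handling, the ferritin genes were at the top, Hmox1 lay at 11.70 and the transferrin receptor gene Tfrc at 9.78. Slc40a1, the iron exporter ferroportin, lay at 6.13, below the bound.

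**Figure D4:**
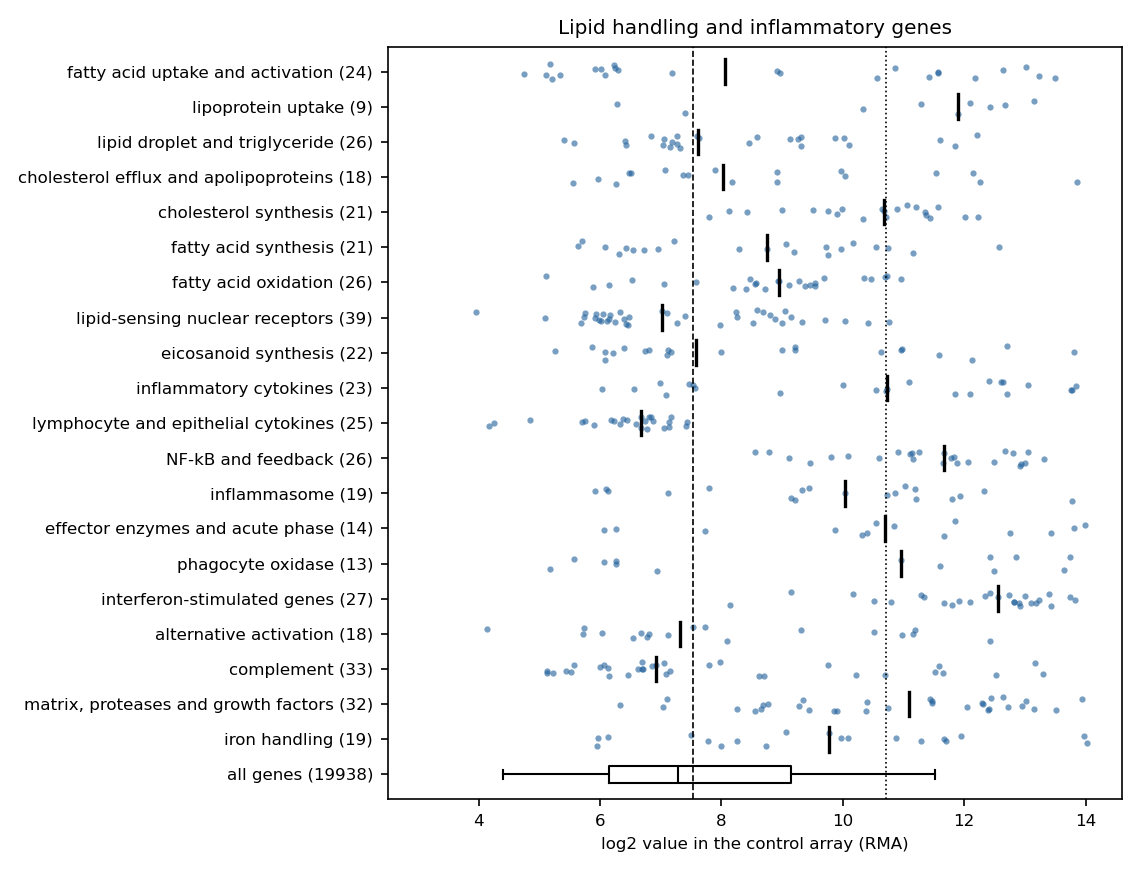
Genes of the lipid and inflammatory lists by log2 value in the control array, drawn as points with list medians as black bars, the dim bound dashed (7.53), the top 10% line dotted (10.72) and all genes as a box (quartiles, whiskers at the 5th and 95th percentile). Interferon-stimulated genes have a median of 12.56, while the 25 lymphocyte and epithelial cytokine genes lie at or below 7.43.

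Genes of resident and of recruited macrophages were both found on each side of the bound. Gata6, the factor of resident large peritoneal macrophages, lay at 8.85, above the bound but outside the top 10%. Gata6 is also counted below among factors of other lineages, and which cells of this unsorted culture gave its signal was not tested. Other genes of resident large peritoneal macrophages were mixed. Fabp7 and Cd93 (11.38) were in the top 10%. Vsig4 lay at 10.22, Cxcl13 at 10.03, Prg4 at 9.10 and Tgfb2 at 8.68, but Icam2 at 7.48, Alox15 at 7.17, Timd4 at 7.01 and Rarb at 6.01. The list had 11 of 19 (57.9%) above the bound, against 45.7% of all genes, with members such as Laptm5 and F10 that many macrophages express. Genes of monocytes and recruited macrophages were mixed too, with 12 of 19 (63.2%) above the bound. Clec4e, Fn1, Ccl9 and Itgax were in the top 1%, whereas Ccr2, Plac8 (5.94) and Chil3 were dim. The monocyte antigen genes Ly6c1 and Ly6c2 share their probes, which lay at 8.00 and 8.04.

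Of 30 markers of macrophages in other tissues 12 (40.0%) lay above the bound, against 45.7% of all genes. Vcam1 (11.83) was in the top 10%, and Sparc (10.59), Tspan4 (10.47), Folr2 (10.44) and Pparg (9.70) were above the bound. Of microglia genes, Olfml3 (9.10) and Tmem119 (8.10) were above it, and P2ry12 (5.75) and Sall1 (6.67) were not. Of alveolar macrophage genes, Siglecf (8.68) was above it and Car4 (6.61) was not. Clec4f (6.67) of Kupffer cells and Spic (6.24) of splenic red pulp were below it. The osteoclast enzymes Acp5 and Ctsk were bright, but Ocstamp (7.10), Dcstamp (7.47) and Calcr (6.53), genes of osteoclast fusion and hormone response, were below the bound.

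Among transcription factors of myeloid cells 40 of 43 were above the bound, with a median of 10.12. After Spi1 came Id2 (12.90), Hif1a (12.40), Irf7 (12.34), Zeb2 (12.28), Klf6 (12.19) and Irf8 (12.13). Irf1 lay at 10.19 with probes at 7.99 and 12.38. Nr4a1 (7.39), Cebpe (7.23) and Irf4 (7.11) were the 3 below. Of 34 factors of other lineages 6 (17.6%) were above the bound, against 45.7% of all genes. They were Tcf4 (10.95), Prdm1 (10.68), Zbtb7b (9.01), Gata6, Tal1 (7.99) and Wt1 (7.80). Pax5 (6.52), Gata3 (6.01), Gata1 (6.70) and Eomes (5.85) were not.

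MicroRNA genes, looked at after their values were seen, were mostly dim. Of 302 such genes 53 (17.5%) lay above the bound, against 45.7% of all genes, and their median was 5.91. Mir155, induced in macrophages by Toll-like receptor signals, lay at 11.99, Mir221 at 10.77 and Mir222 at 10.15. Mir142, a microRNA gene of blood cells, lay at 8.86. Mir146b (7.50) and Mir146 (7.19) were under the bound of 7.53, but at it within the spread between probes. Mir692-1 was higher than all of these at 12.43, but 4 other probes list Mir692 genes together with Ftl1 at values between 13.08 and 13.97. The probes measure transcripts of the precursor gene and not the mature microRNA. The mature forms of 5 genes are printed to show which share a target-binding seed, bases 2 to 8, in capitals (RefSeq, GRCm38.p6).
miR-155-5p: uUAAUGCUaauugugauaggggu
miR-221-3p: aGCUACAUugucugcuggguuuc
miR-222-3p: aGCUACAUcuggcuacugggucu
miR-146a-5p: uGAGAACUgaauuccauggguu
miR-146b-5p: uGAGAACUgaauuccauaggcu
The forms miR-221-3p and miR-222-3p share a seed, and the genes of both were above the bound. The forms miR-146a-5p and miR-146b-5p share another, and the genes of both were at the bound within the spread between probes.

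Most other cell types were marked weakly. In RNA of a whole culture, fewer cells of a type and less RNA per cell cannot be told apart. Lymphocyte lists were dim: 0 of 15 NK cell genes, 2 of 19 T cell genes and 3 of 15 B cell genes lay above the bound, against 45.7% of all genes. The T cell genes were Il7r and Lat (9.47), while Cd3e (7.08), Cd3d (5.54), Cd3g (5.37), Cd4 (6.86) and Cd8a (6.84) were not among them. The B cell genes were Cd22 (10.17), Tnfrsf13c (8.03) and Cd79b (7.53), the last at the bound, while Cd79a (5.77) and Ms4a1 (5.37) were dim.

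Granulocyte markers were dim with exceptions. Of 19 neutrophil genes 5 (26.3%) lay above the bound, against 45.7% of all genes. They were Lcn2, Csf3r (11.29), Mmp8 (9.43), Mmp9 (9.34) and S100a8 (8.13). S100a9 (6.55), the usual partner of S100a8, and Ngp (5.60), Retnlg (5.52) and Ly6g (5.26) were not. Of 14 mast cell and basophil genes 1 was above it, the histidine decarboxylase gene Hdc (10.54), with Cpa3 at 5.13 and Fcer1a at 4.86. Of 8 eosinophil genes 1 was above it, Siglecf, with Prg2 (6.32) and Epx (5.99) below. Dendritic cell genes had 8 of 18 (44.4%) above the bound, against 45.7% of all genes. These were Sirpa (12.74), Irf8 (12.13), Tcf4 (10.95), Ly75 (10.62), Bst2 (10.53), Cd24a (10.21), Ccr9 (7.67) and Ccr7 (7.58). Flt3, Zbtb46 (7.39), Xcr1 (6.17) and Clec9a were not among them.

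Stromal genes were not uniformly dim. Of 25 mesothelial and fibroblast genes, 12 lay above the bound, a share close to that of all genes. Pdpn (13.43), which inflammatory macrophages also carry, was the highest. The fibroblast genes Dcn (10.78), Sparc (10.59), Pdgfrb (10.04), Col1a1 (9.55), Col1a2 (9.25), Pdgfra (9.19) and Col3a1 (8.21) were above it, and Fbln1 (7.37) and Postn (6.76) were not. Of mesothelial genes, Krt8 (8.02) and Wt1 were above it, and Msln (7.09), Upk1b (6.90) and Lrrn4 (6.75) were not. Lum (3.76) was the dimmest. The part of such cells in the matrix genes named above was not tested. Endothelial genes had 2 of 13 above the bound, Vwf (8.71) and Flt1 (7.92), with Cdh5 at 7.32. Adipoq (5.65) and Lep (5.56) of fat cells were dim. Of 25 cell cycle genes 15 (60.0%) were above the bound, against 45.7% of all genes, with Pcna (12.38), Ccnd2 (11.77) and Mki67 (10.57) the highest. The other 10 included Mcm7 (7.47), Aurka (7.45), Mcm3 (7.42), Plk1 (7.39) and Cdc20 (7.38). Rrm2 (7.20), Bub1 (6.57), Birc5 (6.54) and Kif11 (6.44) were also below the bound. Top2a was the lowest at 5.32, with its probes at 3.76 and 6.88.

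**Figure D5:**
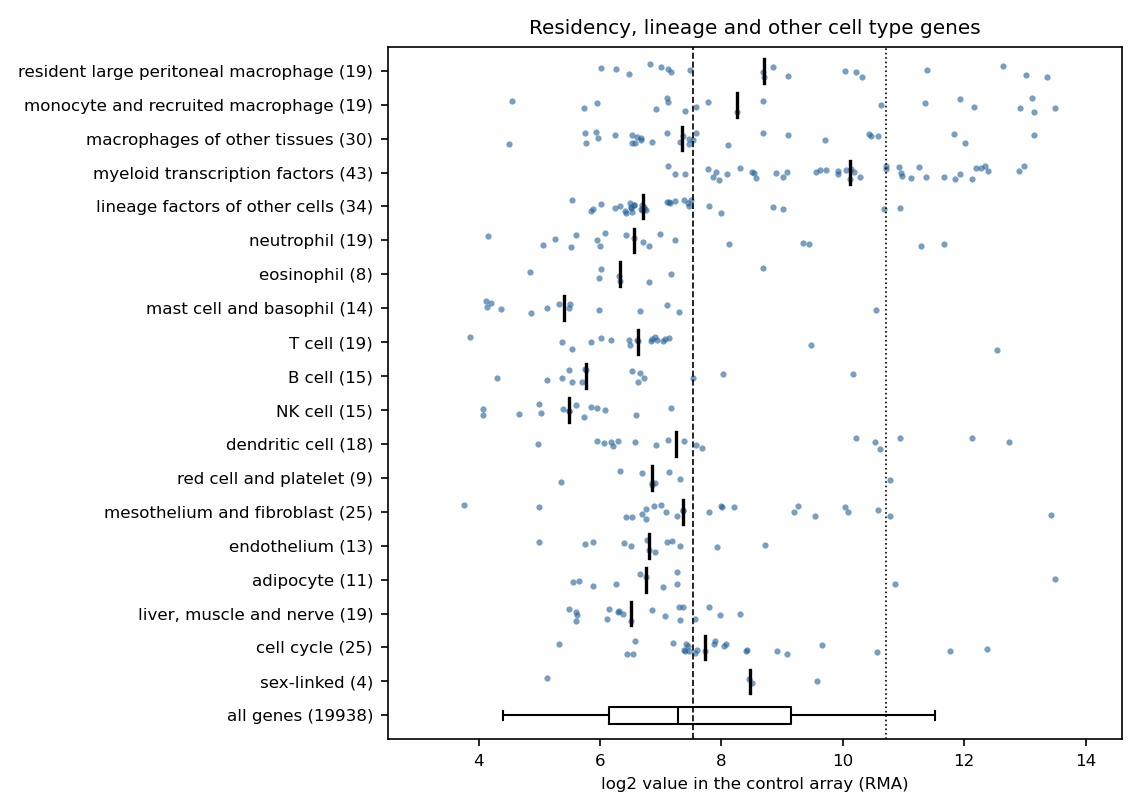
Genes of residency, lineage factor and other cell type lists by log2 value in the control array, drawn as points with list medians as black bars, the dim bound dashed (7.53), the top 10% line dotted (10.72) and all genes as a box (quartiles, whiskers at the 5th and 95th percentile). Myeloid transcription factors have a median of 10.12, while the NK, B and mast cell lists have medians between 5.41 and 5.77.

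Whole gene families taken by their symbol differed in how many members were dim. Outside the reference receptors, 9 of 52 families had no member above the bound, which 45.7% of all genes passed. They were the UDP-glucuronosyltransferases (10 genes) and sulfotransferases (16) of detoxifying tissue, and voltage-gated sodium channels (11). The others were GABA-A (16) and glutamate receptor subunits (14), granzymes (10), mast cell proteases (4), placental prolactins (19) and the alpha-defensins (2). With 4 and 2 genes measured, the mast cell proteases and alpha-defensins say little about a family. The sodium channels reached 6.30 at most, in Scn10a, and the granzymes 6.50, in Gzmm. Of 84 cytochrome P450 genes 10 were above the bound, with Cyp4f13 (10.08) the highest, and of 34 protocadherins 1, Pcdh7 (9.50). Of 15 voltage-gated potassium channels 1 was above it, Kcna3 (10.43), the main such channel of leukocytes. Of 37 Hox genes 4 were above it, up to Hoxb1 at 8.06.

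Families with the highest medians included interferon-induced genes and common machinery. The IFIT genes, all 4 of them above the bound, had the highest median, followed by the 7 Schlafen genes (median 12.00). Of 58 cytosolic ribosomal protein genes 53 lay above the bound, of 39 proteasome subunits 37 and of 34 subunits of respiratory complex I 33, with medians of 11.28, 10.66 and 10.04. Dim members included forms best known from testis, muscle or thymus, Psma8 (6.16), Rpl3l (5.96) and Psmb11 (6.57). In the Ms4a family of membrane proteins 7 of 19 (36.8%) were above the bound, against 45.7% of all genes. Ms4a6d (13.28) was the highest, and Ms4a1, which codes for CD20, was below the bound. Ribosomal proteins have many pseudogenes whose transcripts their probes can bind, so their values are uncertain.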

How the data were processed

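Gene expression was measured on 1 Affymetrix array from 100 ng of RNA pooled from 3 samples, with an RNA integrity number above 8.0. The deposited values are log2 values made by the authors with RMA (background correction, quantile normalisation over arrays and probe summary), per the submitters' processing notes. For the RMA version, summary level and build: not given in the sources used here. Values between 2.28 and 14.37, with a median of 7.09, fit a log2 scale. Quantile normalisation over all 4 arrays means that the control values depend slightly on the other arrays. There are 35556 probes, and GEO's annotation of the platform gives 1 gene for 21789 of them, several for 1621 and none for 12146. Entrez IDs of 21698 probes matched RefSeq (GRCm38.p6), and 0 symbols changed. There were 0 columns of unknown samples.

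Probes of the same gene were averaged, and genes were ranked by value. Lists (57, with 1142 genes, 90 of them not analysed here) and 55 families by symbol were written from general knowledge, and microRNA genes were added after their values were seen. All members and lists were chosen with earlier results of these data known. Named were the 30 highest genes, list members and the highest members of families. With 1 array no test was made. The counting was tested on simulated data. Python 3.11.15, pandas 2.3.3 and numpy 2.4.6 were used. The number of arrays limits the precision.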

Additional observations from a re-analysis of the deposited data

Results flagged for a closer look

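Signal was also present in probes that the gene ranking did not use. Of 1621 probes that list several genes, 435 were in the top 10% of genes and 764 above the dim bound. They include class I histocompatibility genes H2-K1 and H2-D1 at 13.50 and 12.92, Gbp2 with Gbp2b at 13.27, the survival genes of the Bcl2a1 cluster between 12.70 and 12.84, and Isg15 with a predicted gene at 10.16. The beta-globin probes lay at 5.84 and 6.33 and the alpha-globin probes at 7.93 and 7.99. Of the 12146 probes with no listed gene, 3985 lay above the dim bound. The part of these probes in any result was not tested.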

How the results depend on the processing

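With 1 array, the error between cultures is not known, and the spread between probes of the same gene is the sole error at hand. The dim bound was the choice that mattered most. It lay at 7.53, at 6.66 with the 95th percentile of the reference receptors, at 6.25 with their 90th, and at 6.82 without odorant receptors. Genes above the bound numbered 9118, and 14507 with the 90th percentile. Members of other cell type lists above it numbered 59 of 214, and 115 with the 95th percentile, 144 with the 90th and 104 without odorant receptors, so that dim calls near the bound are weak. Residency and lineage members above it numbered 79, and 125 with the 90th percentile. Families with 0 members above it numbered 9, and 5, 3 and 5 under those settings. With the top 5% or 20% in place of 10%, lipid members numbered 27 or 69 beside 44 and other cell type members 8 or 23 beside 13, and lineage members numbered 51 with 20% beside 31, by the construction of the share. Taking the highest or lowest probe, counting probes of several genes, or leaving out predicted genes kept the count of genes above the bound and the counts of the 7 groups within 1.5 times. No paired analysis was possible because there is 1 array.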

Other observations

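The Y-linked genes Eif2s3y, Kdm5d and Uty lay at 9.58, 8.50 and 8.45, above the dim bound, and Xist, which is transcribed from the inactive X chromosome of females, at 5.13. The labels do not give the sex of the mice.

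Among the 1240 reference receptor genes, which were chosen as dim, Olfr111 lay at 10.94, in the top 10% of all genes, and Olfr110 at 8.56. The next after Olfr111 was Olfr1174 at 8.85. The highest of 163 vomeronasal receptor genes was Vmn2r26 at 7.23.

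Members of the same small family often lay far apart. Among S100 genes, S100a10 (13.07), S100a11 (13.05) and S100a1 (12.74) were in the top 10%, while S100a9 lay at 6.55. Among serpins of clade B, Serpinb2, which codes for an inhibitor of plasminogen activators, lay at 12.05 and the median of 24 genes was 4.82. Among ADAM proteases, Adam17 (12.45), the sheddase of TNF, Adam9 (11.72) and Adam8 (11.43) were in the top 10%, while the median of 33 genes was 5.63.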
